A study of Mus musculus with 72 samples.

Results

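The proximal block of mouse chromosome 7 holds long tandem arrays of vomeronasal receptor, secretoglobin, Zscan4 and Obox genes between gene-rich stretches with many zinc-finger genes. Its members were chosen by position: every row of the authors' 5 deposited tables of differential sites on chromosome 7 with a start between 5 Mb and 35 Mb of the mm10 build, which gave 706 of 36113 sites. The block was picked with the directions of its sites in these tables already known, so the direction counts below describe the choice and carry no test. Of the 706 sites, 300 came from the table of susceptible against control mice for H3K27me1, 289 from resilient against control for H3K27me1, 116 from ELS - SbD against Std - Control for H3K27me1, 1 from resilient against control for H3K27me2 and 0 from susceptible against control for H3K27me2.

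The study profiled mono- and dimethylated lysine 27 of histone H3 (H3K27me1, H3K27me2) and an IgG background by CUT&RUN, a method that cuts out antibody-bound chromatin with a tethered nuclease for sequencing, in the nucleus accumbens of wildtype adult male mice. The strain and the number of animals are not given in the sources used here. Chronic social defeat stress (CSDS) gave susceptible and resilient groups, compared with the cohort's controls, with 4 libraries per mark and group. A second cohort had mice labelled ELS - SbD, ELS - Control, Std - SbD and Std - Control, with 3 libraries per mark and group. ELS is early life stress, and the label SbD is not spelled out. The H3K27me1 libraries of ELS - Control and Std - SbD mice enter none of the authors' deposited tables. ELS - SbD and Std - Control mice differ in both parts of the label. The separate shares of early life stress and of SbD in their differences were therefore not tested. The labels do not tie libraries to separate animals, so every spread below is the spread between libraries. Susceptible and resilient libraries were compared with the same 4 control libraries. In such bulk nuclei, fewer cells that carry the mark and less mark per cell cannot be told apart. The tables hold histone-mark sites and no RNA, so the labelled tissue was not checked against marker genes.

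H3K27me1 and H3K27me2 are the lower methylation states of the lysine that the Polycomb complex also trimethylates; H3K27me1 is known to lie over the bodies of transcribed genes, and H3K27me2 covers much of the inactive genome. Vomeronasal receptors (Vmn1r and Vmn2r) detect pheromones in the sensory neurons of the vomeronasal organ and are silent in most other cells. Zinc-finger proteins with a KRAB domain repress transposable elements by recruiting the corepressor Trim28. Obox and Zscan4 genes act in the oocyte and early embryo, Scgb genes of the block encode subunits of salivary androgen-binding protein, Psg genes encode pregnancy-specific glycoproteins of the placenta, and Nlrp genes of the block are largely expressed in oocytes.

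Promoters show the base composition at gene starts of the block, not that of the gaps between genes. Of 123 protein-coding genes with a site, 103 matched an entry of the RefSeq promoter table (GRCm38.p6). Of the 815 promoters of the block in that table, each from 250 bases before to 50 after the gene's start, only 5 shared at least 1 base with a site, and all 5 are shown; a gene start within 1000 bp was found for 11 of the 261 lower susceptible and 5 of the 236 higher resilient sites. The 5 are listed because their base composition runs from AT-rich to CG-rich; the start follows the first 250 bases, and capitals mark each CG dinucleotide. The Mia promoter (chr7:27181100-27181399, minus strand) lay wholly in a site that was lower in susceptible mice, and the Obox2 promoter (chr7:15388601-15388900, plus strand) shared 100 bases with another. The promoter of the vomeronasal receptor gene Vmn1r130 (chr7:21511530-21511829, plus strand) shared 171 bases with a site that was higher in resilient mice. The promoters of Slc8a2 (chr7:16129576-16129875, plus strand) and Gramd1a (chr7:31151122-31151421, minus strand) shared 275 and 300 bases with sites that were higher in ELS - SbD mice.
Mia: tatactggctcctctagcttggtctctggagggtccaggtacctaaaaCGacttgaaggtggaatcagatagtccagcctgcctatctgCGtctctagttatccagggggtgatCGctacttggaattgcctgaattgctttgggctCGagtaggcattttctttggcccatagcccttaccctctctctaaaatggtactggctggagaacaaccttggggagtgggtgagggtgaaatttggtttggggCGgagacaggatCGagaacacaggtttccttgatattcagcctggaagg
Obox2: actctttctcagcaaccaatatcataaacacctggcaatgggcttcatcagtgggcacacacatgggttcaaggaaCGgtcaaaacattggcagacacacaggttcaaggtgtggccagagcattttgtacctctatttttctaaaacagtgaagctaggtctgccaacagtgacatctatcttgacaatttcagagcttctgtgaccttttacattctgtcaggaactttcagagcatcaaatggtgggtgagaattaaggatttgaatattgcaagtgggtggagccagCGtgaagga
Vmn1r130: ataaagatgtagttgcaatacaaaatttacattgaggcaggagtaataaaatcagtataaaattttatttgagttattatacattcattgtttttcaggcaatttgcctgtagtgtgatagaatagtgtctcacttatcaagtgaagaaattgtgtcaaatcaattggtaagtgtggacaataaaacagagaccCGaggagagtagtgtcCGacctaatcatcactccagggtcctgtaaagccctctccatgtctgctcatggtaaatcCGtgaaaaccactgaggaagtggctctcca
Slc8a2: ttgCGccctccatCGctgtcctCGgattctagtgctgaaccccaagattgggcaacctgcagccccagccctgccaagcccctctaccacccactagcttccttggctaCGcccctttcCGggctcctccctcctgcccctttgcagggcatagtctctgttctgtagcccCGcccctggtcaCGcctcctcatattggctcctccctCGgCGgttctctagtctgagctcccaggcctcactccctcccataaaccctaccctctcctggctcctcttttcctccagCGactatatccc
Gramd1a: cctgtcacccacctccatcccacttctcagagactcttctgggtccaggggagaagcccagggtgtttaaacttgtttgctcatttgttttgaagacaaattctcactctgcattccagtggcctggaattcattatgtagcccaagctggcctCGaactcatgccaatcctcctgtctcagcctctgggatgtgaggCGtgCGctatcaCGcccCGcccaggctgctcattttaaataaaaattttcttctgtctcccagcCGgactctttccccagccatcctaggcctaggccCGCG

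The site over Mia, which encodes a secreted cartilage protein, had 50.4, 53.3, 73.8 and 62 normalised reads in susceptible libraries and 80.0, 72.6, 93.9 and 80.8 in controls. The site at Vmn1r130 had 69.8, 67.6, 88.2 and 111 in resilient libraries and 60.4, 74.7, 40.3 and 66.3 in controls. At both sites the groups overlapped.

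The Vmn1r130 sequence had a GC share of 37.7% with 3 CG dinucleotides, close to the median of 36.3% and 2 over the 115 Vmn1r promoters of the block. The Obox2 sequence had 44% and 2, the Mia sequence 50.7% and 6, the Gramd1a sequence 53% and 8, and the Slc8a2 sequence 61.3% and 10. Over all 32851 RefSeq promoters of this length the medians were 52.7% and 7, and 94.6% held at least 1 CG dinucleotide. Zinc-finger promoters of the block had a median of 54.5% and 14 over 70 entries.

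In susceptible mice H3K27me1 sites of the block were mostly lower than control, both between the tandem receptor genes and over zinc-finger and other genes. Of the 300 sites, 261 were lower and 39 higher, against 49.7% lower over the 12127 sites of that table; the site's position was chosen with this imbalance known. The rest of chromosome 7 leaned the same way in that table, with 279 sites lower and 104 higher. All 300 sites had an adjusted p of at most 0.05 in the authors' deposited table, as did 12122 of the 12127 sites of the whole table (100% after rounding). Their G-test pools the reads of a group, so the libraries were also set side by side: at 161 of the 300 sites no susceptible library overlapped a control library, against 52.8% of the whole table.

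Gaps between tandem genes carried most of these sites. A gap here is a site that overlaps no named protein-coding gene and whose nearest named gene on either side belongs to one family. Between Vmn1r genes 80 sites were lower and 17 higher, between Scgb genes 31 and 4, between Zscan4 genes 17 and 4, and between Vmn2r genes 13 and 4. A site between Vmn1r111 and Vmn1r112 (chr7:20760501-20763200), named by its nearest genes Vmn1r112 and Vmn1r113, is an example. Its 4 susceptible libraries had 281, 228, 260.2 and 272 normalised reads and its 4 controls 337, 323, 346 and 360.4. Every susceptible library was below every control, and the means were 260.0 ± 23.2 against 341 ± 15.9 (SD, n = 4 each). The log2 change from limma was -0.39 with an SE of 0.13, on log2(normalised reads + 1).

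Some sites lay inside the receptor genes. Over all 672 protein-coding genes of the block, 74 had a lower and 4 a higher susceptible site. Of 132 vomeronasal receptor genes of the block, 3 had a susceptible site inside the gene: Vmn1r139, Vmn2r35 and Vmn2r48. At Vmn2r48 (intron, chr7:9928601-9929600) the susceptible libraries read 58.3, 63.2, 79.9 and 61.1 and the controls 86.4, 84.1, 88.5 and 104.7, with no overlap and a log2 change of -0.47 (SE 0.14). Vmn1r139 held both directions in susceptible mice. Its intronic site at chr7:22079301-22081300 averaged 229.9 ± 18 against 294 ± 30.1 in controls, while its sites at chr7:22072901-22073900 and chr7:22088201-22089500 were higher, at 83.3 ± 12.2 against 59.8 ± 12.8 and 131 ± 7.86 against 97.2 ± 12.4 (SD, n = 4 each).

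At zinc-finger genes most sites lay over the genes. Against the 74 of 672 genes of the block with a lower site, of 78 zinc-finger genes of the list (which counts Zscan4 genes too), 24 had a susceptible site; 23 of these had only lower sites and 1, Zfp420, only a higher one. At Zfp128 (exon, chr7:12884601-12887100) the susceptible libraries had 207, 203, 202 and 222 normalised reads and the controls 302, 243, 259 and 279.6. All susceptible libraries were below all controls, with a log2 change of -0.37 (SE 0.13). The site over Zfp865 and Ccdc106 (exon, chr7:5023901-5025500) also separated the groups, but its susceptible libraries were split, with 67.2 and 66.8 against 108 and 107 and with controls at 121, 139, 142 and 111. Zfp790 and Zfp974 averaged 129.8 ± 19.5 against 184 ± 26.5 and 138 ± 11.9 against 187 ± 15.5 normalised reads, each with no overlap between the groups (SD, n = 4 each).

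Over named genes outside the families, all 41 susceptible sites were lower. Sites over predicted or unnamed genes alone were counted as gaps. Of these genes, Gm4141 held 1 higher susceptible site, and 2310022A10Rik, Gm4567 and 4931406P16Rik held only lower ones (3, 2 and 1). Shkbp1, which encodes a partner of the endocytic adaptor Sh3kbp1, held the lowest fold of the susceptible sites of the block (exon, chr7:27351301-27352300). Its susceptible libraries had 48.4, 22.6, 35.1 and 47.4 normalised reads and its controls 70.8, 69.1, 86.4 and 70.1, a log2 change of -0.99 (SE 0.18). Sympk, which encodes the scaffold protein symplekin of messenger RNA 3-prime end processing, averaged 214 ± 26.8 against 305 ± 49.8 (exon, chr7:19039601-19043200; SD, n = 4 each). Cic, a transcriptional repressor, and Sirt2, a deacetylase, were the members of the chromatin regulator list with a susceptible site, 2 of 5, with 3 sites, all lower. At Cic (exon, chr7:25285701-25287200) the susceptible libraries lay between 89.5 and 103 and the controls between 121 and 146. Of 18 neuronal and glial genes, Ap2s1, a subunit of the clathrin adaptor, and Sipa1l3, a Rap GTPase regulator, each had 1 lower site, a share like that over all genes of the block (74 of 672). The 3 Obox genes with a susceptible site held 6 gene-by-site overlaps, all lower, 2 of 9 Nlrp genes had 3 lower sites and 1 higher, and 3 of 27 Psg and Ceacam genes (Psg18, Ceacam5, Ceacam14) had 1 lower site each. None of the 13 Cyp2 genes or the 3 genes of the imprinted Peg3 domain in the block had a susceptible or resilient site.

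**Figure D1:**
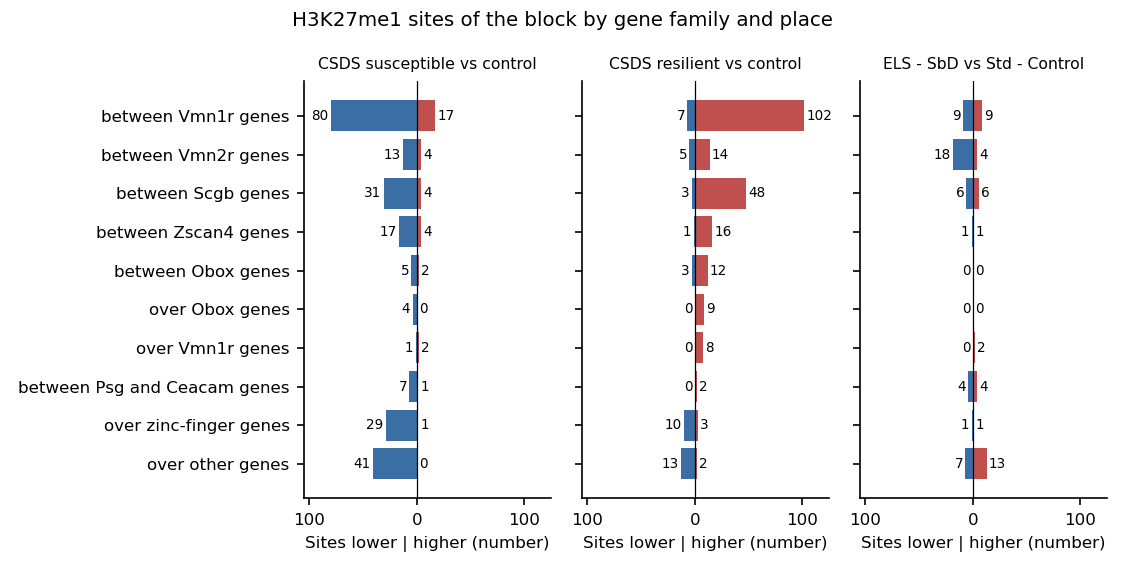
Number of H3K27me1 sites of the block that were lower (left, blue) or higher (right, red) than control in each of the 3 H3K27me1 tables, by gene family and by whether a site lay between genes of a family or over a named gene. Between Vmn1r genes 80 sites were lower in susceptible mice and 102 higher in resilient mice, while over zinc-finger genes lower sites prevailed in both tables.

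In resilient mice the tandem arrays went the other way: H3K27me1 sites between receptor, secretoglobin, Zscan4 and Obox genes were mostly higher than control, while sites over zinc-finger and other genes were mostly lower. Of the 289 sites, 236 were higher and 53 lower, against 51.6% higher over the 7015 sites of that table. All 289 had an adjusted p of at most 0.05 in the authors' deposited table, as did 99.9% of the whole table. At 168 of the 289 the resilient and control libraries did not overlap, against 54.7% of the whole table. On the rest of chromosome 7 the resilient table had 132 sites higher and 118 lower.

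Between Vmn1r genes 102 resilient sites were higher and 7 lower, between Scgb genes 48 and 3, between Zscan4 genes 16 and 1, between Vmn2r genes 14 and 5, and between Obox genes 12 and 3. Between Scgb1b29 and Scgb2b15 (chr7:32629301-32630300) the resilient libraries had 80.0, 64.3, 70.6 and 78.0 normalised reads and the controls 51.9, 28.4, 51.2 and 41.8. The groups did not overlap, and the log2 change was 0.78 (SE 0.16), the highest of the named resilient sites. Between Zscan4e and Zscan4f (chr7:11323501-11325400) the resilient libraries had 171, 127, 159 and 155 and the controls 111, 80.6, 86.1 and 138. One control there exceeded the lowest resilient library. Nearest to the predicted genes Gm4175 and Gm4177, between Vmn1r132 and Vmn1r135 (chr7:21757801-21759400) the values were 140.5, 113, 113 and 145 against 86.8, 67.6, 100.3 and 84.5, with no overlap.

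Inside vomeronasal and Obox genes the resilient sites were higher as well, while the 1 resilient site inside a secretoglobin gene, Scgb1b18, was lower. Over all 672 protein-coding genes of the block, 23 had a higher and 27 a lower resilient site. Of the 132 vomeronasal genes 6 had a resilient site (Vmn1r73, Vmn1r79, Vmn1r127, Vmn1r139, Vmn2r35 and Vmn2r40), all higher, with 10 sites. At Vmn1r73 (intron, chr7:11732901-11733900) the resilient libraries had 86.0, 67.6, 83.3 and 84.8 and the controls 61.3, 58.1, 31.6 and 63.6, a log2 change of 0.62 (SE 0.17), which was 0.39 without control library 31. The 3 Obox genes with sites, Obox1, Obox2 and Obox3, are oocyte homeobox genes and held 12 higher gene-by-site overlaps and 0 lower. At Obox1 (intron, chr7:15436801-15439000) the resilient libraries stayed within 443 to 454 and the controls within 347 to 410.1. Of 9 Nlrp genes, Nlrp5 and Nlrp9c had higher sites, 3 in all, and of 27 Psg and Ceacam genes, Psg18 and Psg26 had a higher site and Ceacam5 a lower one. The Psg26 log2 change was 0.58 and, without control library 28, 0.36.

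Zinc-finger and other named genes were mostly lower in resilient mice, as the susceptible sites were. Over zinc-finger genes outside the Zscan4 family 10 resilient sites were lower and 3 higher, and over named genes outside the families 13 were lower and 2 higher. Over predicted or unnamed genes alone, Gm4567, Gm10662, Gm5157 and Gm5890 each held 1 higher site, and Gm3854, Gm5891 and 4931406P16Rik 1 lower site each. Of the 78 zinc-finger genes, 11 had a resilient site: 7 only lower, 2 only higher and 2 both. Trim28, the corepressor of KRAB zinc-finger proteins, was the 1 chromatin regulator of 5 with a resilient site (intron, chr7:13001101-13002400). Its resilient libraries had 67.2, 73.2, 61.7 and 73.2 and its controls 115, 90.1, 93.8 and 95.4, so that every resilient library was lower, with a log2 change of -0.51 (SE 0.14). Samd4b, an RNA-binding regulator of translation, averaged 257 ± 25.2 against 329 ± 32.8 (exon, chr7:28404201-28406400; SD, n = 4 each). The resilient change at Sympk was -0.42 (SE 0.15) and, without resilient library 30, -0.26.

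**Figure D2:**
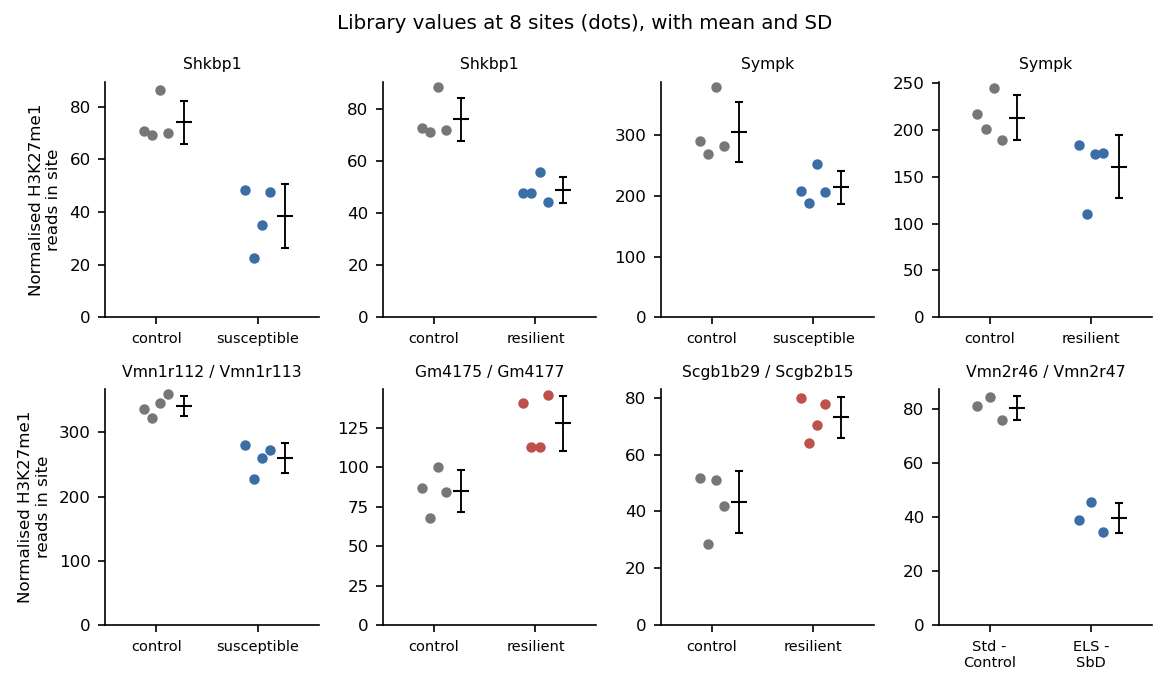
Normalised H3K27me1 reads of each library (dots) with the mean and SD (bars) at 8 sites, control libraries on the left of each panel. Shkbp1 and Sympk were lower in both defeat groups, the site nearest Vmn1r112 and Vmn1r113 lower in susceptible mice, the sites nearest Gm4175 and Scgb1b29 higher in resilient mice, and the site nearest Vmn2r46 and Vmn2r47 lower in ELS - SbD mice.

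In counts per bin the opposite directions clustered in the tandem arrays, though mostly not on the same sequence, as given below. In bins of 1 Mb, 17 of the 30 had mostly lower susceptible sites and mostly higher resilient sites. These 17 bins held 175 lower and 38 higher susceptible sites beside 230 higher and 22 lower resilient sites. They include the Zscan4 and Vmn1r array at 11 to 12 Mb (15 susceptible sites lower, 23 resilient sites higher), the Obox arrays at 14 to 16 Mb (14 and 24), the Vmn1r array at 20 to 24 Mb (84 and 105) and the Scgb arrays at 31 to 34 Mb (32 and 48). In 9 other bins both comparisons were mostly lower, with 67 susceptible sites lower and 1 higher beside 28 resilient sites lower and 3 higher. Those 9 bins hold 282 protein-coding genes, against 264 in the 17 opposite bins. The stretch from 24 to 31 Mb, with 244 genes, had 50 susceptible sites lower and 1 higher and 19 resilient sites lower and 3 higher. The 17 and the 9 bins were sorted by these same directions, so the direction of the sums inside them was fixed by the sorting. Because both comparisons use the same control libraries, these counts are not independent of each other, and no test was made between them.

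**Figure D3:**
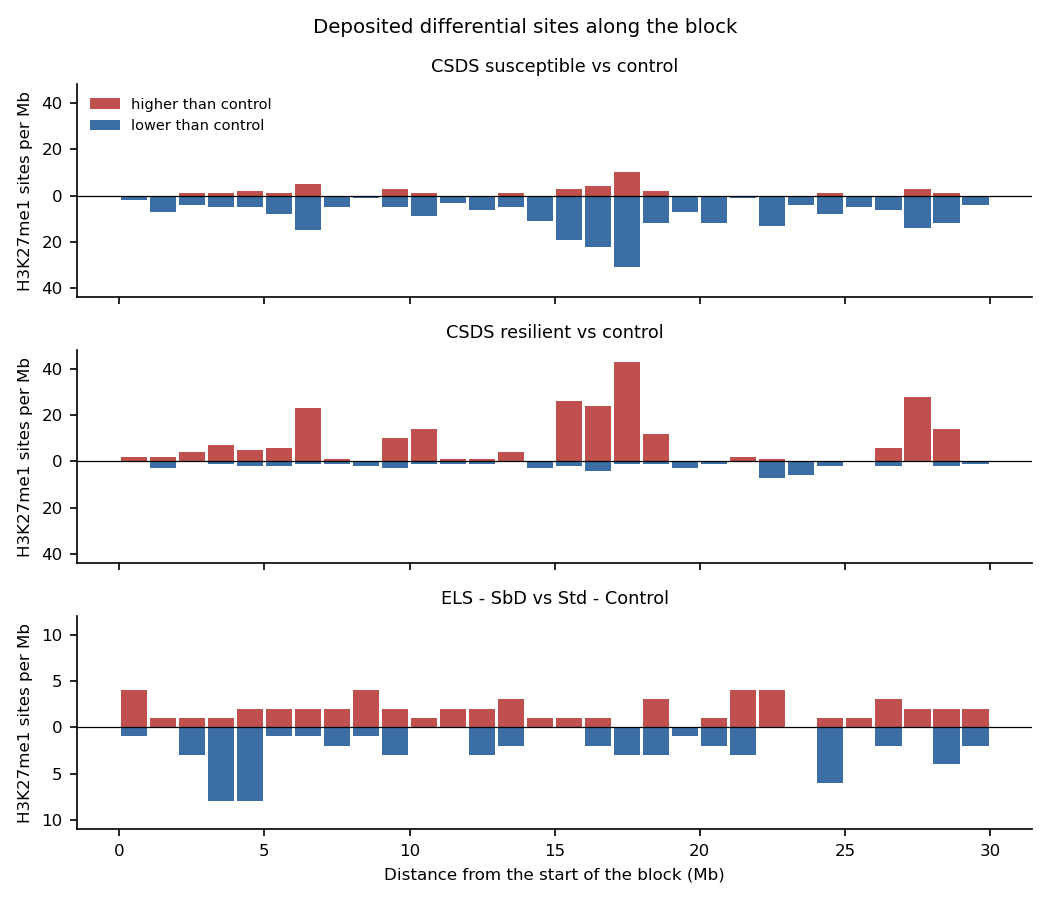
Number of H3K27me1 sites in each 1-Mb bin, higher than control above the line and lower below it, against the distance from the start of the block in Mb, for the 3 tables. The tallest resilient bin (43 higher sites) and the deepest susceptible bin (31 lower sites) are the same bin, 17 Mb from the start, inside the Vmn1r array.

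Opposite calls rarely shared sequence. Of the susceptible and resilient sites, 43 pairs overlapped by at least 1 base, which took in 14.3% of the susceptible and 14.9% of the resilient sites. In 38 of the pairs the direction was shared (21 both lower, 17 both higher) and in 5 it was opposite. All 17 pairs that were both higher lay in or between Vmn1r, Vmn2r, Zscan4 or Scgb genes. Where both comparisons called overlapping sequence in the tandem arrays, most pairs thus shared their direction. Each of the 5 opposite pairs touched only at an edge, by at most 300 bases and at most 23.1% of the shorter site. Their nearest genes were Zscan4e and Zscan4f, Vmn1r120 and Vmn1r121, Vmn1r159 and Vmn1r160, Gm6902 and Nlrp4e, and Scgb1b17 and Scgb2b17. In the last, the susceptible site at chr7:33092601-33093900 had 69.2, 65, 77.4 and 71.1 normalised reads against controls of 102, 95.6, 89.6 and 122. The resilient site at chr7:33093601-33095300 had 156, 136, 186 and 131 against controls of 117, 86.5, 116 and 134. The susceptible libraries stayed below their controls, while 1 control exceeded the lowest resilient library.

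From a higher resilient site the median distance to the centre of the nearest lower susceptible site was 16.9 kb, and 55.9% of the 236 lay within 20 kb. From a lower susceptible site the median distance to the nearest higher resilient site was 27.9 kb, with 44.4% of the 261 within 20 kb. Within 5 kb of an opposite call lay 44 of the higher resilient and 41 of the lower susceptible sites. The control level differed between the sets as well. Lower susceptible sites had a median control mean of 113 normalised reads, and higher resilient sites one of 84.6. Lower resilient sites had a median control mean of 101 and higher susceptible sites one of 79.0, so in either table lower sites were those where the controls read higher. Over the whole susceptible and resilient tables the same medians were 121 for lower and 89.8 for higher susceptible sites, and 118 for lower and 83.9 for higher resilient sites. The part of the shared control libraries in the opposite directions was not tested.

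Where the window was identical in both tables, the direction was shared. Nearest Zscan4-ps2 and Zscan4f (chr7:11469701-11470700) the authors' deposited log2 fold change was 0.46 in susceptible and 0.47 in resilient mice. Nearest Vmn1r135 and Gm4177 (chr7:21816501-21817700) it was 0.37 and 0.39, so these windows of the tandem arrays were higher in both groups. The Shkbp1 window was identical too. Its resilient libraries had 47.7, 47.7, 55.9 and 44.3 normalised reads against controls of 72.6, 71.1, 88.3 and 71.8. The log2 change was -0.62 (SE 0.14) in resilient and, as above, -0.99 (SE 0.18) in susceptible mice; the difference between the groups was not tested. Control library 31 was the high one in both tables, which hold the same control libraries at this window. At Zfp850 the shared start at chr7:28011101 was lower in both tables, and a resilient site 14100 bases away (chr7:27996001-27997000) was higher, at 131 ± 15.6 against 100.2 ± 10.2 (SD, n = 4 each).

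By gene, 26 genes had a site in both defeat tables, and 11 of them held sites of opposite direction: Obox1, Obox2, Obox3, Vmn1r139, Vmn2r35, Nlrp5, Zfp787, Zfp850, Epn1, Psg18 and Gm4567. Vmn1r139 is among them only through its 1 lower susceptible site. Its 2 higher susceptible sites overlapped resilient sites that were higher too. In Obox1, Obox2 and Obox3, whose annotated spans overlap, all susceptible sites were lower and all resilient sites higher. Obox1 spans 168 kb (chr7:15388948-15556866) and held 4 lower susceptible and 7 higher resilient sites, the most of any gene of the block, and the nearest opposite pair lay 500 bases apart. Its lower susceptible site at chr7:15430701-15432800 read 319, 238, 288 and 339 against controls of 406, 321, 388 and 399, with overlap between the groups. At Psg18 the opposite sites lay 1900 bases apart. The susceptible one (chr7:18351901-18353000) read 69.2, 63.2, 76.2 and 64.7 against 103, 101, 82.1 and 102, and the resilient one (chr7:18348701-18350000) 131, 122, 129 and 141 against 104.7, 102, 91.6 and 97.2. Neither pair of groups overlapped.

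At Nlrp5, an oocyte gene, the susceptible site (exon, chr7:23441401-23442500) was split between libraries, with 43.5 and 37.9 in 2 libraries, 96.8 and 80.2 in the other two, and controls between 77.2 and 101.3. The resilient site (exon, chr7:23423901-23425300) was higher in every library, at 141 ± 10.8 against 104.5 ± 18.2. At Epn1, which encodes the endocytic adaptor epsin, the susceptible site averaged 107 ± 8.86 against 140.4 ± 18.6 and the resilient site 172 ± 17.5 against 128 ± 9.53 (SD, n = 4 each). The authors' deposited enrichment over IgG was not higher in resilient mice at the resilient sites of Epn1 (2.42 against 2.48), Zfp787 (2.36 against 2.4) and Zfp850 (4.25 against 4.84), so their opposite direction rests on the reads alone. At Zfp787 and Vmn2r35 the susceptible sites were lower and the resilient sites higher as well, with overlapping libraries at both resilient sites and at the Vmn2r35 susceptible site. The resilient Zfp787 log2 change of 0.43 was 0.24 without control library 28, and the susceptible Nlrp5 change of -0.60 was -0.39 without susceptible library 29.

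Higher and lower sites also differed in what they overlapped, in the same sense in both defeat tables. Of the 261 lower susceptible sites 91 (34.9%) overlapped a protein-coding gene, 55 of them an exon. Of the 39 higher susceptible sites 5 (12.8%) did. Of the 236 higher resilient sites 34 (14.4%) did, 9 of them an exon, and of the 53 lower resilient sites 28 (52.8%) did. In the block 89 susceptible sites overlapped a named gene and 211 did not; elsewhere in that comparison the counts were 10321 and 1506. Genes with a higher resilient site had a median transcript GC share of 44.3% over 23 genes, and genes with a lower site had 52% over 27 (resilient) and 50.4% over 74 (susceptible). Over all 672 protein-coding genes of the block the median was 49%, with 41.5% for Vmn1r, 47.6% for zinc-finger genes and 55% for genes outside the families. Whether base composition has a part in the directions was not tested.

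Few sites of the tandem families lay elsewhere in the genome in the defeat tables. Sites in or between genes of the 9 tandem families (Vmn1r, Vmn2r, Zscan4, Obox, Scgb, Sult2a, Psg and Ceacam, Nlrp, Cyp2) numbered 205 in the block and 11 elsewhere in the susceptible table, and 245 and 4 in the resilient table. Genes of these families outside the block were not counted, so these numbers cannot be told apart from where the genes lie. Vomeronasal sites outside the block numbered 8 lower and 1 higher in susceptible mice and 3 higher and 1 lower in resilient mice. Zinc-finger genes and gaps were lower at 97.0% of 33 susceptible sites of the block and at 61.8% of 272 elsewhere. In resilient mice the corresponding shares were 81.2% of 16 and 42.6% of 197. The difference was not tested, since the block had been chosen for its directions.

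In ELS - SbD mice the block was mixed, with a run of lower sites among Vmn2r genes. Of the 116 sites 61 were lower and 55 higher, against 33.3% lower over the 10234 sites of that table. An adjusted p of at most 0.05 in the authors' deposited table was met by 107 of the 116, against 96.7% of the whole table, and the libraries did not overlap at 115 of them, against 98.8%. The authors used a negative binomial test for this cohort and a G-test for the other, and the depths differ, so the cohorts' counts and fold sizes are not compared. Between Vmn2r genes 18 sites were lower and 4 higher, between Vmn1r genes 9 and 9, and between Scgb genes 6 and 6. From 8 to 10 Mb, within the Vmn2r array, 16 sites were lower and 3 higher. Outside the block vomeronasal genes and gaps had 18 lower and 30 higher sites in that table. Over all 672 protein-coding genes of the block, 20 had a higher and 11 a lower ELS - SbD site. Inside genes, 3 of 132 vomeronasal receptors had a site (Vmn1r176 and Vmn1r184 higher, Vmn2r42 lower), as did 2 of 78 zinc-finger genes (Zfp78 higher, Zfp74 lower), 3 of 9 Nlrp genes (2 higher, 1 lower) and 1 of 27 Psg and Ceacam genes (Psg25, lower). No Obox gene, chromatin regulator or Peg3-domain gene of the lists had one.

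The ELS - SbD site of smallest adjusted p lay between Vmn2r37 and Vmn2r46, nearest to Vmn2r46 and Vmn2r47 (chr7:9582001-9583600). Its libraries had 39, 45.7 and 34.5 normalised reads and its Std - Control libraries 81.0, 84.5 and 75.8. All 3 were below all controls, with a log2 change of -1.01 (SE 0.19). Between Vmn1r83 and Vmn1r84 (chr7:12341001-12342000) the site was higher, at 22.9, 24.3 and 27 against 8.89, 6.80 and 10.5, with the authors' deposited enrichment over IgG at 0.94 and 0.48, below the background in both groups. Cyp2b19, a skin epoxygenase and the 1 Cyp2 gene of 13 with a site, was lower (exon, chr7:26764601-26766000), at 22 ± 7.5 against 46.8 ± 4.94 (SD, n = 3 each). Nlrp4a was higher, at 27.3 ± 2.98 against 13.1 ± 1.54 (SD, n = 3 each), and Ehd2, a membrane-shaping ATPase, at 32.5 ± 5.56 against 13.8 ± 2.42. The authors' deposited enrichment was below 1 in both groups here too, at 0.84 and 0.64 for Nlrp4a and 0.70 and 0.41 for Ehd2. With an enrichment of at least 1 asked in either group, 42 of the 55 higher and 58 of the 61 lower sites were left.

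Among neuronal and glial genes, 2 of 18 had an ELS - SbD site. Of all 672 genes of the block, 20 had a higher and 11 a lower one. Sipa1l3 had 3 lower sites; at the strongest (intron, chr7:29431301-29432300) the libraries had 32.1, 16.8 and 24.8 against 42.5, 45.7 and 48.8. Slc8a2, which encodes a sodium-calcium exchanger of neurons, had 2 higher sites, 1 of them over the promoter printed above (chr7:16129601-16130700), with 35.6, 41.1 and 65.8 against 25.7, 27.2 and 18.3. There the authors' deposited enrichment over IgG was 0.19 in ELS - SbD and 0.09 in Std - Control, so the mark read below the IgG background in both groups. At the Gramd1a promoter site (chr7:31150501-31151500) the libraries had 24.1, 26.1 and 32.4 against 6.92, 12.6 and 16.6, and the authors' deposited enrichment was 0.29 and 0.14. Gramd1a encodes a sterol transfer protein. ELS - SbD sites shared bases with 3 susceptible sites, all in the opposite direction, and with 0 resilient sites, which took in 2.59% of the ELS - SbD and 1% of the susceptible sites; these tables share no libraries.

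In the defeat cohort H3K27me2 had almost no differential site in the block. The H3K27me2 libraries of the second cohort enter none of the authors' deposited tables. The single one, lower in resilient mice, lay between Vmn1r76 and Vmn1r77 (chr7:12010601-12011600). Its resilient libraries had 93.6, 76.9, 103 and 121 normalised reads and its controls 108, 130.4, 146 and 136. The groups overlapped, and the authors' deposited enrichment over IgG was 0.60 and 0.82. The 2 H3K27me2 tables held 2078 and 4659 sites in all. The rest of chromosome 7 had 2 and 11 of them, so H3K27me2 sites were sparse there too. Over the genome the authors' p adjustment took in 48304 (susceptible) and 52728 (resilient) windows for H3K27me2. For H3K27me1 it took in 270324 and 275586, so fewer H3K27me2 windows were tested.

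Each library's share in these differences was read at the called sites, where the side on which a group lies is fixed by the choice of sites. Over the 261 lower susceptible sites the median of a library's value over the control mean was 0.72, 0.65, 0.79 and 0.79 in susceptible libraries 26, 29, 32 and 35, and between 0.95 and 1.03 in the 4 controls. Over the 236 higher resilient sites it was 1.36, 1.24, 1.36 and 1.42 in libraries 27, 30, 33 and 36, and between 0.96 and 1.09 in the controls. Library 29 was the lowest of the susceptible libraries and library 30 the lowest of the resilient ones, at lower and at higher sites alike. Per the file headers, H3K27me1 libraries of the defeat cohort averaged 20.57 to 30.39 reads per 1000-bp bin and those of the second cohort 5 to 7.78, so the sites of the second cohort rest on fewer reads.

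**Figure D4:**
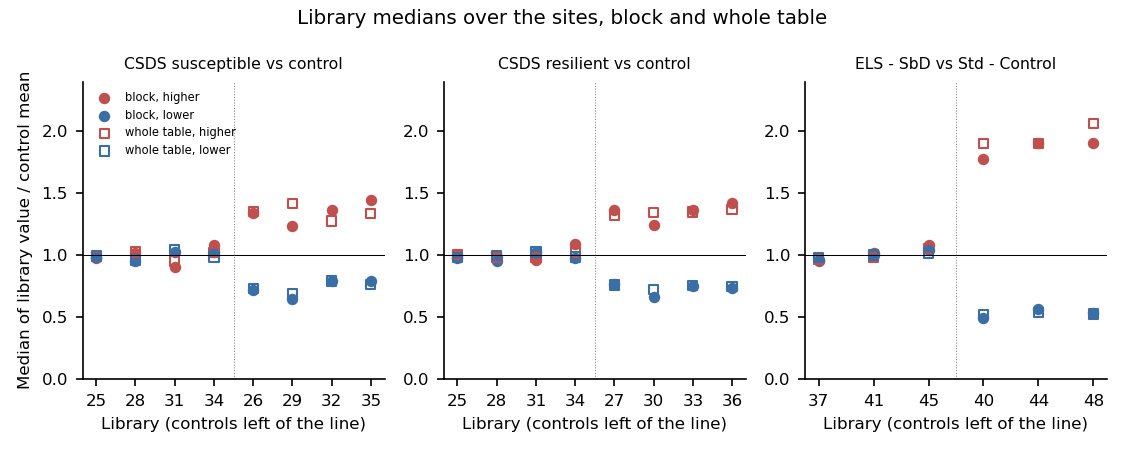
Median, over the sites of the block (filled) or of the whole table (open), of each library's normalised reads divided by the mean of the controls, for higher (red) and lower (blue) sites. Sites were split by direction first, so the side is given; in the block the susceptible libraries range from 0.65 to 0.79 at lower sites and the resilient ones from 1.24 to 1.42 at higher sites.

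The IgG background moved too. Over the 39 higher susceptible sites the median ratio of susceptible to control reads was 1.37, while the ratio of the authors' enrichment over IgG was 1.01, and 56.4% of these sites had a higher enrichment in susceptible mice, against 91.1% of higher sites over the whole table. Over the 261 lower susceptible sites the ratios were 0.73 for reads and 0.61 for enrichment, and 99.2% kept the direction. Dividing one ratio by the other gave a median IgG background 1.33 times and 1.23 times the control's at these higher and lower sites, against 0.96 and 1.09 over the whole susceptible table. Over the 236 higher resilient sites the implied IgG ratio was 0.99 and 90.3% kept the direction. The part of the IgG background in the susceptible values was not tested. Reads were kept only where they aligned uniquely, so near-identical copies in these arrays are counted only where they differ, and values between tandem Vmn1r, Scgb, Zscan4 and Obox copies are uncertain for that reason.

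At the edges, the first susceptible site inside the block began at 5023901 (log2 fold change -0.56 in the authors' deposited table) and the last before it at 4687101 (-0.45). The last inside began at 34235901 (-0.59) and the first after it at 35052501 (-0.50). For the resilient table the authors' values were 0.43 and -0.42 at the lower edge and -0.53 and 0.45 at the upper edge, inside and outside in that order. For ELS - SbD they were 0.89 and 0.93, and 1.24 and 0.82.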

How the data were processed

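Per the submitters' processing notes, the tools were Bowtie2 2.4.1, MACS2 2.2.6, SAMtools 1.10, cutadapt 2.10 and Trim Galore 0.6.5, with build mm10; their roles and order are not given in the sources used here. Per the file headers, the authors found differential sites with diffReps 1.55.4 in sliding windows (1000 bp wide, moved by 100 bp, reads taken as 100-bp fragments), keeping those at p of 0.0001. The 4 defeat tables used a G-test; for ELS it was negative binomial. The names of the input files in the headers show unique alignment and removal of duplicates. The deposited signal is a normalised read count per library, the site's reads divided by a header constant; multiplied back by constants refined within their rounding, 100% of the values checked were whole reads within 0.1. The deposited log2 fold change compares group means, the deposited enrichment is a ratio of signal to IgG, and the authors' p-value is deposited raw and adjusted. Windows that missed this p limit were not analysed here. No column was left without a sample.

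Sites were annotated with GENCODE M21. Log2 changes and SE came from limma 3.58.1 (R 4.3.3) on log2(normalised reads + 1), fitted over every site of a table and tested on simulated data; no p of its own was computed for the block. Python 3.11.15 and pandas 2.3.3 did the rest. A site over no gene is named by its 2 nearest genes, which can lie on one side of it. Sites were named by rule: per table up to 4 higher and 4 lower by smallest adjusted p, the 5 genes with most sites, every gene with opposite susceptible and resilient sites, and up to 4 genes from each of 9 lists (vomeronasal receptors, zinc-finger genes, Nlrp, Obox, Psg and Ceacam, Cyp2, the Peg3 domain, chromatin regulators, neuronal and glial genes), leaving out sites with a mean below 10 reads in both groups. The block, the lists and the named sites were chosen with earlier results of these data known. The Scgb, Sult2a and Zscan4 families, the promoter genes and the 1-Mb stretches were added after their values were seen.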

Additional observations from a re-analysis of the deposited data

Results flagged for a closer look

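In groups of 4 libraries, 1 library stood far from the other three at 5 of the 106 named site and group combinations examined; chance gives about 1 in 20 groups, which is close to that share. Control library 31 was low at Psg18 in the susceptible table, with 82.13 normalised reads beside 101.39 to 102.98. It was high at Shkbp1, with 86.4 beside 69.13 to 70.8 in the susceptible table and 88.32 beside 71.11 to 72.61 in the resilient table. The Shkbp1 values come from the same library and window in both tables, so they are not separate cases among the 5. Resilient library 30 was low at Vmn1r73, with 67.61 beside 83.3 to 85.98, and at Sympk, with 110.84 beside 174.44 to 183.89.

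At 5 overlapping pairs every susceptible library lay below its control mean and every resilient library above its own, a difference that was not tested and that uses the same control libraries. In the authors' deposited tables the log2 fold changes were -0.34 and 0.46 nearest Zscan4e and Zscan4f, -0.41 and 0.33 nearest Vmn1r120 and Vmn1r121, and -0.37 and 0.38 nearest Vmn1r159 and Vmn1r160, susceptible first. They were -0.43 and 0.44 nearest Gm6902 and Nlrp4e, and -0.54 and 0.43 nearest Scgb1b17 and Scgb2b17.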

How the results depend on the processing

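The counts of 261 lower susceptible, 236 higher resilient and 61 lower ELS - SbD sites were recounted under other settings. With any 1 library left out each stayed the same (from 261 to 261, from 236 to 236 and from 61 to 61). Pseudocounts of 0.5 and 5, and every library scaled to 1 median, left them the same too. The authors had chosen the sites on these same contrasts, so their directions were nearly fixed before the recount. The unchanged counts therefore say little about how stable the directions are. The scaling shifted log2 changes by -0.41 in the ELS - SbD table and by -0.33 at the H3K27me2 site, and by -0.01 and -0.02 in the susceptible and resilient tables. At an adjusted p of 0.01 the ELS - SbD count was 25 lower (21 higher), while 257 lower susceptible and 233 higher resilient sites remained. No share over the whole tables is given at this limit, so these counts cannot be read as a trait of the block. The single H3K27me2 site, chosen in the same way, kept its direction with each library left out (from 1 to 1). It fell out, leaving 0, where an enrichment over IgG of at least 1 was asked. The 5 opposite pairs became 0 of 37 when at least 50% of the shorter site had to be shared and 94 of 159 for centres within 10 kb. Counted over any GENCODE gene instead of protein-coding genes, an alternative chosen after seeing the data, 120 instead of 91 of the lower susceptible sites overlapped a gene. Sites whose libraries do not overlap numbered 161 (susceptible), 168 (resilient) and 115 (ELS - SbD) with every library kept. With 1 library left out they ranged from 170 to 210, 175 to 216 and 115 to 116. Leaving out a library can only keep or raise this count, so the rise says nothing about stability. No share over the whole tables is given for this recount. Over the 65 named sites, 676 of 691 alternatives moved the log2 change by less than the spread between libraries and 15 moved it more. A reversal was seen in 0 of the alternatives, and was unlikely at sites chosen on these same contrasts. No paired analysis was possible because the labels give no number, animal or batch that groups share; the order of the library numbers was not used to pair. The GC and repeat share of the sites was not analysed here.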
